A study of Mus musculus with 6 samples.

Results

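Solute carriers are membrane proteins that move ions, sugars, amino acids, vitamins, metals and other small molecules across the plasma membrane or the membranes of organelles, and each numbered family shares a fold or a type of substrate. The rows of the deposited RNA-Seq table whose symbol begins with *Slc* or *Slco* and a number were taken, without the mitochondrial carriers of family *Slc25a* and without pseudogene rows. This gave 63 genes of the 4132 analysed here. The table as analysed here breaks off within a row, so the genes cover only part of the superfamily. One of them, *Slc7a6os*, carries a carrier symbol only because it lies beside *Slc7a6* on the opposite strand, and it does not encode a transporter.

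Contracting cardiomyocytes depend on carriers for fuel, for the removal of acid and for the exchange of chloride, bicarbonate, phosphate and amino acids. Bicarbonate and chloride exchangers help to set the pH of the cell, fatty acid transport proteins serve the main fuel of the heart, and system A amino acid carriers bring in glutamine and other small neutral amino acids with sodium.

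The hearts came from *db/db* mice, labelled lepr-/-, which lack a working leptin receptor and become obese and diabetic. The study describes the mice as males on the C57BLKS/J background. One group of 3 mice was given an FGF1 variant, named FGF1ΔHBS in the study. The dose was 0.5 mg/kg, injected into the peritoneum every other day. Treatment began at an age of 10 weeks and lasted 16 weeks, and 3 vehicle mice were given saline. FGF1ΔHBS is a recombinant human fibroblast growth factor 1 with substitutions in its heparin-binding site, made to lower its mitogenic activity. All 6 hearts were taken at 26 weeks of age, and no library of a non-diabetic mouse was analysed here. The libraries were made from whole heart tissue, so fewer cells of a type and less RNA per cell cannot be told apart.

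The values are FPKM, that is, fragments scaled for the length of the transcript and the size of the library, so levels of different genes can be set beside each other. FPKM does not give read numbers. Relative depth was inferred from the most frequent ratio between libraries of the values of genes under 0.3 FPKM. It put vehicle replicate 2 at 1.202 times the depth of vehicle replicate 1 and the other libraries between these. Of 15 cardiomyocyte markers 4 were in the table, *Tnnt2*, *Tnnc1*, *Actc1* and *Nppa*, and they summed to between 10861 and 13243 FPKM. *Nppa*, which encodes atrial natriuretic peptide, varied most of the 4, from 22.7 to 431 FPKM, with its highest value in vehicle replicate 2, which also held the highest level of the red cell gene *Hbb-bt* (397 FPKM, against 118 to 204 FPKM elsewhere). Of the marker lists for other cells, the table held 2 of 9 leukocyte, 2 of 10 endothelial, 1 of 8 fibroblast and 1 of 10 adipocyte genes. Vehicle replicate 3 stood apart in those of leukocytes and fibroblasts. Its *Cd14* and *Ptprc*, which mark myeloid cells and leukocytes, summed to 12.6 FPKM, against 5.51 and 5.23 FPKM in the other vehicle mice and 3.41 to 4.26 FPKM in the FGF1ΔHBS mice. Its endothelial markers *Tie1* and *Emcn* summed to 21.7 FPKM, the lowest of the 6 but near the 24.9 FPKM of FGF1ΔHBS replicate 2. The fibroblast marker *Dcn* was at 154 FPKM in vehicle replicate 3, at 284 and 288 FPKM in the other vehicle mice and at 368 to 431 FPKM in the FGF1ΔHBS mice. The adipocyte marker *Adipoq* was at 0.246 to 1.21 FPKM in the FGF1ΔHBS mice and at most 0.217 FPKM in the vehicle mice. The summed leukocyte markers were thus lower, and *Dcn* and *Adipoq* higher, in every FGF1ΔHBS mouse than in every vehicle mouse, and their part in the carrier results was not tested. FGF1ΔHBS replicate 3 held the highest level of 5 of the 7 carriers on a list typical of kidney.

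Of the 63 genes, 4 had a mean over the 6 mice of at least 50 FPKM, 4 lay between 10 and 50 FPKM, 17 between 1 and 10 FPKM, 19 between 0.1 and 1 FPKM and 19 below 0.1 FPKM. The 4 most abundant were *Slc4a3* (85.8 FPKM), *Slc27a1* (72.4 FPKM), *Slc38a2* (59.6 FPKM) and *Slc20a2* (58.1 FPKM). They encode a chloride-bicarbonate exchanger, a fatty acid transport protein, a system A amino acid carrier and a sodium-phosphate cotransporter. Together they made up between 64.2% and 69.1% of the summed FPKM of the 63 genes in each library. That sum was 404 to 420 FPKM in vehicle mice and 411 to 429 FPKM in FGF1ΔHBS mice, and these ranges overlap. Of the 63 genes, 17 were listed at 0 in at least 1 library.

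**Figure D1:**
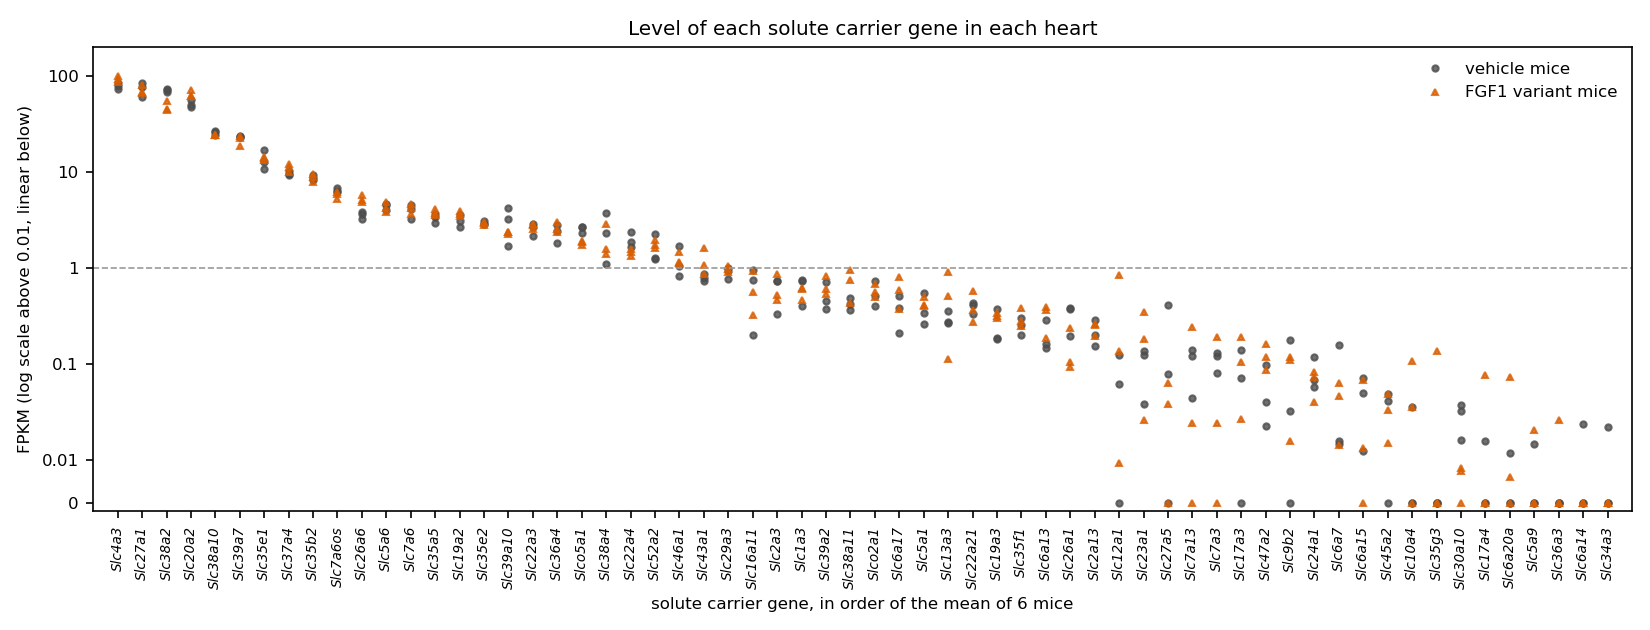
FPKM of 62 of the 63 solute carrier genes in each of the 6 hearts, ordered by mean level, on a logarithmic axis above 0.01 FPKM that is linear below. Circles are vehicle mice, triangles are FGF1ΔHBS (FGF1 variant) mice, and the dashed line marks 1 FPKM, the mean above which genes were tested. *Slc4a3*, *Slc27a1*, *Slc38a2* and *Slc20a2* stand above the others, and the spread between mice widens below 1 FPKM.

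The question the comparison addresses is which carrier genes differ in the diabetic heart after long treatment with FGF1ΔHBS. For 25 of the carriers the mean reached 1 FPKM, and these were tested with limma on log2(FPKM + 1), in a fit over all 2041 genes at that level. Fold changes are given on this log2(FPKM + 1) scale, where those of low genes come out too small. With Benjamini-Hochberg adjustment in limma, 0 of the 25 carriers had an adjusted p-value under 0.05, against 0.098% of all genes tested. By the unadjusted p-value, 5 of the 25 carriers, or 20%, were under 0.05, against 17.1% of all genes tested. The share of the carriers is thus near that of the background, and the 5 genes are described one by one with their values in each mouse. Higher with FGF1ΔHBS were 3 carriers, *Slc26a6*, *Slc20a2* and *Slc4a3*, where 7.1% of all genes were called in this direction. A pair, *Slc38a2* and *Slco5a1*, was lower, where the background was 10%.

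The promoters of the called genes held in RefSeq on GRCm38.p6 are given here, as 300 bases around a start annotated in RefSeq. Those of *Slc20a2* and *Slco5a1* were not found. A RefSeq start can differ from the gene start given below. The whole *Slc26a6* window and most of the *Slc4a3* window lie inside the gene as located below. Capitals mark the GC box GGGCGG and the CCAAT box CCAAT on either strand. The *Slc38a2* promoter is on the minus strand of chr15:96699679-96699978, that of *Slc26a6* on the plus strand of chr9:108853793-108854092 and that of *Slc4a3* on the plus strand of chr1:75546212-75546511.
Slc38a2: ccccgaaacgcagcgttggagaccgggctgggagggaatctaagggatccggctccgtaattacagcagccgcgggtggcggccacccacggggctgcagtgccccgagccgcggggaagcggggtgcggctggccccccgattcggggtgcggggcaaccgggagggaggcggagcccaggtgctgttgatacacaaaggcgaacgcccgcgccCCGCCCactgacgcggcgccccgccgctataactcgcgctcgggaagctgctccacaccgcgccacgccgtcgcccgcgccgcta
Slc26a6: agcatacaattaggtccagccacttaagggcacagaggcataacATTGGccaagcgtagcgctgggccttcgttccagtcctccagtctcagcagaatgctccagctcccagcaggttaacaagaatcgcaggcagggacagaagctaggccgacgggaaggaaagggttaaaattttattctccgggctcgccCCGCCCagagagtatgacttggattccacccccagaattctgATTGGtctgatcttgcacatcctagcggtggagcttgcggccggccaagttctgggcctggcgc
Slc4a3: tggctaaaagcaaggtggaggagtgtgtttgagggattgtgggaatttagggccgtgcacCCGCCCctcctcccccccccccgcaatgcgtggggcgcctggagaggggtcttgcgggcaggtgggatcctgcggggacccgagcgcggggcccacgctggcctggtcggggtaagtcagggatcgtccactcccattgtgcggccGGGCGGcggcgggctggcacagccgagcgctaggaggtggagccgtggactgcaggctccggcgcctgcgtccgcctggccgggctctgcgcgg
The GC box was found once in the promoter of *Slc38a2*, once in that of *Slc26a6* and 2 times in that of *Slc4a3*. The GC content of these windows was 73% for *Slc38a2*, 56% for *Slc26a6* and 71.7% for *Slc4a3*. RefSeq promoters were matched for 47 of the 63 genes. The GC box was in 65% of their 60 promoters and in 35.7% of all 32851 promoters. The CCAAT box was found 2 times in the promoter of *Slc26a6*, and was in 41.7% of the carrier promoters and 37.4% of all promoters. The CRE (TGACGTCA) was in 0 of the 60 carrier promoters and in 1.79% of all promoters. The composite C/EBP-ATF element (TGATGNAAT) was also in 0 of the 60, and in 0.965% of all promoters. The E-box (CACGTG) was in 11.7% of the carrier promoters and 7.15% of all, the TATA box (TATAAA) in 10% and 13.6%, and the estrogen-related receptor element (AAGGTCA) in 3.33% and 4.72%. None of the motifs searched holds another, and a match describes only these letters in this window.

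*Slc38a2* encodes SNAT2, the sodium-coupled neutral amino acid carrier of system A, which takes up glutamine, alanine and other small amino acids. The gene (ENSMUSG00000022462) lies on the minus strand of chromosome 15 of GRCm38 from 96687392 to 96699730. It was at 73.2, 71.6 and 68.4 FPKM in vehicle replicates 1, 2 and 3, and at 55.1, 45.2 and 44.1 FPKM in FGF1ΔHBS replicates 1, 2 and 3. The vehicle values were close together, and each treated heart lay below all of them. The mean was 71.1 ± 2.44 FPKM (SD, n = 3) in vehicle hearts and 48.2 ± 6.04 FPKM (SD, n = 3) in treated hearts, a ratio of 0.677. On the log2 scale the difference was -0.56 (SE 0.0942, adjusted p = 0.11 by limma). The two-sided exact permutation test gave p = 0.1 for this gene and for each of the other 4 called carriers, the smallest that 3 mice against 3 allow. *Slc38a2* had the smallest unadjusted p-value of the carriers (0.00054 by limma). Without vehicle replicate 3 its adjusted p-value was 0.032 by limma, with a log2 fold change of -0.59, but there 84 of all genes passed 0.05 against 2 with all mice. With any other mouse left out its adjusted p-value was 0.0957 to 0.295 by limma.

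*Slc26a6* encodes an anion exchanger that trades chloride for bicarbonate, oxalate or other anions and is present in cardiomyocytes. It lies on the plus strand of chromosome 9 from 108853283 to 108913049 (ENSMUSG00000023259). Its level was 3.85, 3.62 and 3.27 FPKM in the vehicle mice and 5.10, 5.71 and 4.87 FPKM in the FGF1ΔHBS mice. All treated values lay above all vehicle values. Its mean was 3.58 ± 0.292 FPKM (SD, n = 3) in vehicle hearts and 5.23 ± 0.434 FPKM (SD, n = 3) in treated hearts, a ratio of 1.46 that was the widest among the called carriers that were higher. On the log2 scale the difference was 0.44 (SE 0.0959, adjusted p = 0.116 by limma).

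*Slc4a3* encodes AE3, the chloride-bicarbonate exchanger of excitable tissue, which brings chloride into the cell as bicarbonate leaves. It is on the plus strand of chromosome 1 from 75546266 to 75562172 (ENSMUSG00000006576). The vehicle mice had 73.0, 77.8 and 84.0 FPKM, and the FGF1ΔHBS mice had 86.7, 100.1 and 93.1 FPKM. The groups did not overlap, but vehicle replicate 3 and FGF1ΔHBS replicate 1 were near each other. The mean was 78.3 ± 5.51 FPKM (SD, n = 3) in vehicle hearts and 93.3 ± 6.71 FPKM (SD, n = 3) in treated hearts, and the difference was 0.25 on the log2 scale (SE 0.0819, adjusted p = 0.184 by limma). Its unadjusted p-value of 0.018 by limma did not stay under 0.05 without vehicle replicate 1, where the log2 fold change was 0.20, or without FGF1ΔHBS replicate 2, where it was also 0.20. *Slc4a3* and *Slc26a6* were the only tested members of the group that carries chloride, bicarbonate, sodium and protons, which held 5 genes. The other 3 had means under 1 FPKM: *Slc26a1*, *Slc9b2* and *Slc12a1*.

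*Slc20a2* encodes PiT-2, a sodium-dependent phosphate transporter found in most tissues. It lies on the plus strand of chromosome 8 from 22476788 to 22569612 (ENSMUSG00000037656). It was at 47.8, 49.5 and 55.7 FPKM with vehicle and at 62.2, 71.1 and 62.5 FPKM with FGF1ΔHBS, and each treated heart was above each vehicle heart. Vehicle hearts averaged 51.0 ± 4.17 FPKM and treated hearts 65.3 ± 5.05 FPKM (SD, n = 3 each), a difference of 0.35 on the log2 scale (SE 0.0865, adjusted p = 0.116 by limma). Without vehicle replicate 3 the log2 fold change was 0.41 and the adjusted p-value 0.0434 by limma. With any other mouse left out the adjusted p-value was 0.218 to 0.354 by limma. The exons of *Slc20a2* share 95 bases with *Smim19* on the opposite strand, and the sources used here do not say whether strand was counted.

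*Slco5a1* belongs to the organic anion transporting polypeptides, and its own substrates are little known. It lies on the minus strand of chromosome 1 from 12866549 to 12992650 (ENSMUSG00000025938). The vehicle values were 2.29, 2.69 and 2.70 FPKM, and the FGF1ΔHBS values were 1.88, 1.90 and 1.73 FPKM, which are all lower. The mean was 2.56 ± 0.233 FPKM (SD, n = 3) in vehicle hearts and 1.84 ± 0.0929 FPKM (SD, n = 3) in treated hearts. On the log2 scale the difference was -0.32 (SE 0.097, adjusted p = 0.154 by limma), and on this scale the pseudocount of 1 damps a gene at this level. With a pseudocount of 0.1 it was -0.45.

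**Figure D2:**
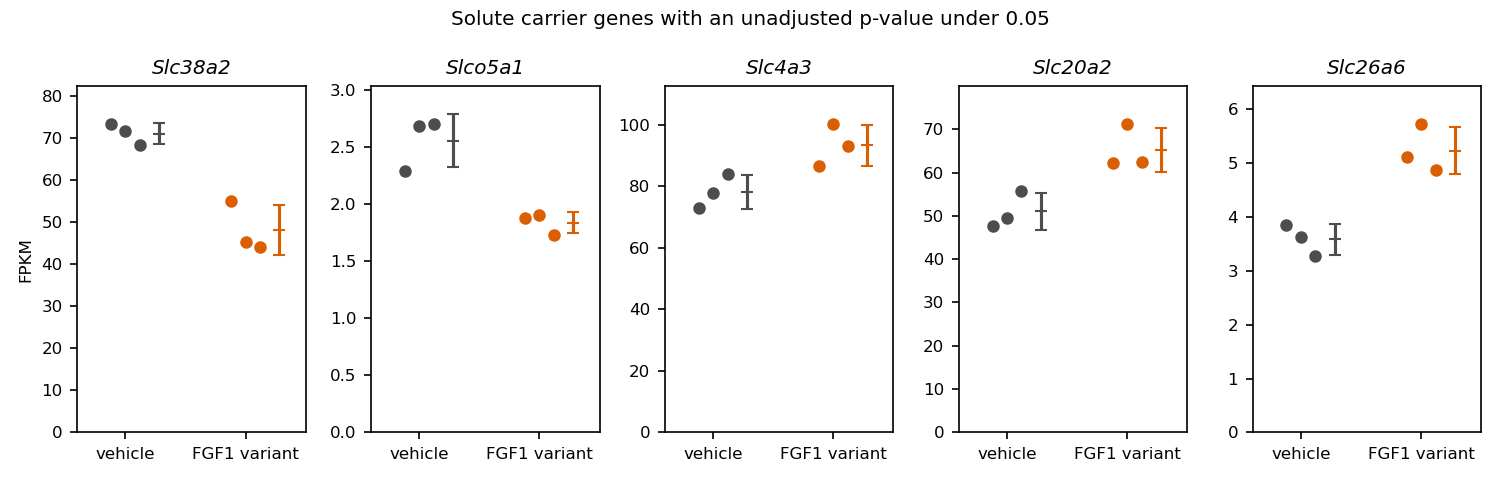
FPKM in each heart, on axes that start at 0, for the 5 solute carrier genes with an unadjusted p-value under 0.05 by limma. Points are single mice and the bars beside them are the mean and SD of 3 mice. In each panel the vehicle (grey) and FGF1ΔHBS (FGF1 variant, orange) values do not overlap, with *Slc38a2* and *Slco5a1* lower and *Slc4a3*, *Slc20a2* and *Slc26a6* higher after treatment.

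The groups did not overlap for 3 of the 25 genes in the higher direction, against 10.7% of all genes tested, and for 3 in the lower direction, against 13.6%. The third of the lower genes was *Slc22a4*, which encodes OCTN1, a carrier of ergothioneine and some organic cations. It was at 1.65, 2.37 and 1.88 FPKM with vehicle and 1.34, 1.46 and 1.58 FPKM with FGF1ΔHBS (log2 fold change -0.26, SE 0.12, adjusted p = 0.321 by limma, and -0.17 without vehicle replicate 2). Its neighbour *Slc22a21*, 2.79 kb away on the same strand, was under 0.6 FPKM in all 6 hearts. The median log2 fold change of the 25 carriers was 0.052, and that of all genes tested was -0.021. The log2 fold change was above 0 for 13 of the 25, or 52%, against 45.2% of all genes tested.

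**Figure D3:**
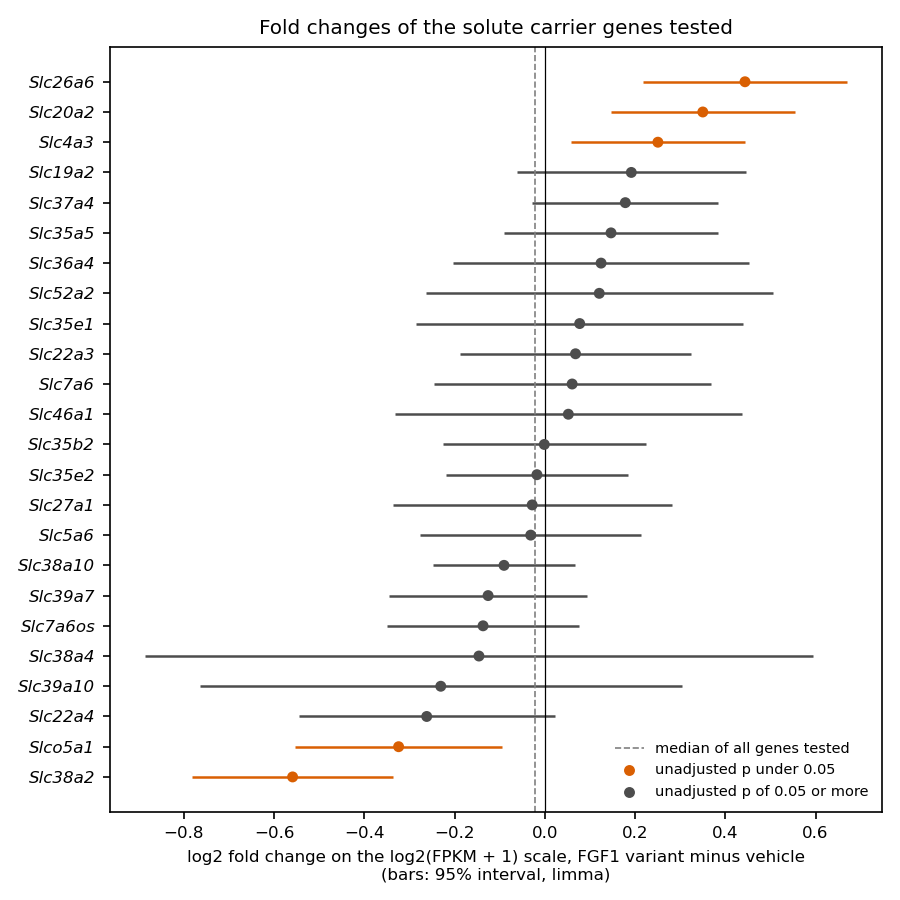
Log2 fold change on the log2(FPKM + 1) scale, FGF1ΔHBS (FGF1 variant) minus vehicle, for 24 of the 25 solute carrier genes tested. Points are estimates, bars are 95% intervals from limma, orange marks an unadjusted p-value under 0.05 and the dashed line is the median of all 2041 genes tested. The values run from -0.56 for *Slc38a2* to 0.44 for *Slc26a6*, and the interval of *Slc38a4* is the widest.

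Amino acid and peptide carriers were the largest group, with 16 genes of which 5 were tested. *Slc38a2* was the only one of the 5 called. The group summed to 103 to 111 FPKM in vehicle mice and 80.4 to 90.6 FPKM in FGF1ΔHBS mice, and *Slc38a2* made up most of it. *Slc38a10*, a related carrier, was at 25.7 ± 1.49 FPKM (SD, n = 3) in vehicle hearts and 24.1 ± 0.067 FPKM (SD, n = 3) in treated hearts (log2 fold change -0.091, 95% interval -0.25 to 0.067). It was -0.018 with a correction for GC content and -0.14 without vehicle replicate 1. *Slc38a4*, which encodes the system A carrier SNAT4 and lies 295 kb from *Slc38a2* on the same strand, varied most between mice of the genes tested. Its values were 2.29, 3.74 and 1.10 FPKM with vehicle and 2.89, 1.41 and 1.57 FPKM with FGF1ΔHBS, a ratio of 3.42 between the highest and the lowest heart. The 2 groups overlapped widely for this gene, with a 95% interval of the log2 fold change from -0.89 to 0.59. *Slc7a6*, which encodes a light chain of the exchanger of basic and neutral amino acids, was at 3.98 ± 0.673 FPKM and 4.17 ± 0.494 FPKM (SD, n = 3 each). *Slc7a6os*, 2.01 kb away, was at 6.48 ± 0.366 FPKM and 5.81 ± 0.511 FPKM (SD, n = 3 each). *Slc36a4*, an amino acid carrier, was at 2.36 ± 0.501 FPKM with vehicle and 2.64 ± 0.347 FPKM with FGF1ΔHBS (SD, n = 3 each). *Slc43a1*, a carrier of large neutral amino acids, fell just short of the test with a mean of 0.997 FPKM. Its highest value was 1.62 FPKM in FGF1ΔHBS replicate 3, and the other hearts lay between 0.738 and 1.09 FPKM.

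*Slc27a1* encodes FATP1, which takes up long-chain fatty acids and activates them to acyl-CoA. Its level was 83.5, 60.7 and 75.8 FPKM in the vehicle mice and 66.1, 80.4 and 68.1 FPKM in the FGF1ΔHBS mice. Each group covered most of the range of the other, and the log2 fold change was -0.028 with a 95% interval of -0.34 to 0.28. *Slc27a5*, which encodes an enzyme of bile acid conjugation in liver, was listed at 0 in 2 hearts and did not exceed 0.411 FPKM.

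The sugar carriers were 6 genes, of which only *Slc37a4* was tested. It encodes the glucose-6-phosphate transporter of the endoplasmic reticulum. *Slc37a4* was at 9.63, 10.2 and 9.22 FPKM with vehicle and 11.3, 10.05 and 12.004 FPKM with FGF1ΔHBS, with vehicle replicate 2 above FGF1ΔHBS replicate 2 and the other treated hearts above all vehicle hearts. The difference was 0.18 on the log2 scale (SE 0.0877, adjusted p = 0.357 by limma). *Slc2a3*, the glucose transporter GLUT3 of neurons and leukocytes, lay between 0.331 and 0.870 FPKM in the 6 hearts. *Slc5a1*, the sodium-glucose cotransporter SGLT1, lay between 0.261 and 0.551 FPKM. For both of these the groups overlapped.

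The metal carriers were 4 genes. *Slc39a7*, which encodes ZIP7, a carrier that releases zinc from the endoplasmic reticulum and Golgi apparatus, was at 23.4 ± 0.416 FPKM (SD, n = 3) in vehicle hearts and 21.5 ± 2.53 FPKM (SD, n = 3) in treated hearts. The wider spread of the treated group came from replicate 2, at 18.7 FPKM. The exons of *Slc39a7* share 2084 bases with the transcript *Gm20427* on the same strand, so the split of reads between them is uncertain. *Slc39a10*, a zinc importer of the plasma membrane, was at 4.24, 3.25 and 1.70 FPKM in the vehicle mice and between 2.28 and 2.38 FPKM in the treated mice. The low vehicle value belonged to replicate 3, the library with the highest leukocyte and the lowest endothelial marker sum, and its part in the result was not tested. With all 6 hearts the log2 fold change of *Slc39a10* was -0.23 (95% interval -0.76 to 0.30), without vehicle replicate 3 it was -0.50 (adjusted p = 0.0599 by limma), and without vehicle replicate 1 it was -0.022.

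Carriers of vitamins and nucleosides were 7 genes, of which 4 were tested and none was called. *Slc19a2*, the thiamine transporter, was at 3.11 ± 0.435 FPKM with vehicle and 3.68 ± 0.231 FPKM with FGF1ΔHBS (SD, n = 3 each; log2 fold change 0.19, 95% interval -0.062 to 0.44, and 0.12 without vehicle replicate 2). *Slc5a6*, which carries biotin and pantothenate, was at 4.41 ± 0.340 FPKM and 4.31 ± 0.509 FPKM (SD, n = 3 each). Its exons share 396 bases with *Atraid* on the opposite strand. *Slc52a2*, a riboflavin transporter, was at 2.24 FPKM in vehicle replicate 1 and at 1.24 and 1.26 FPKM in the other vehicle hearts, and the treated hearts lay in between, from 1.61 to 1.95 FPKM. *Slc46a1*, the proton-coupled folate transporter, ran from 0.825 to 1.70 FPKM within the vehicle group alone, which covered all treated values.

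The nucleotide sugar family held 6 genes, 4 of them tested and none called. *Slc35b2*, which brings the sulfate donor PAPS into the Golgi apparatus, was level at 8.76 ± 0.598 FPKM with vehicle and 8.76 ± 0.889 FPKM with FGF1ΔHBS (SD, n = 3 each), and the 95% interval of its log2 fold change was -0.23 to 0.22. *Slc35e1*, whose substrate is not established, was at 10.6, 12.6 and 17.1 FPKM with vehicle and between 13.4 and 14.5 FPKM with FGF1ΔHBS. Its spread lay in the vehicle group, and without vehicle replicate 3 its log2 fold change went from 0.077 to 0.25. *Slc35a5* and *Slc35e2* had means of 3.57 FPKM and 2.94 FPKM, and the highest heart was 1.39 and 1.11 times the lowest.

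Among the carriers of organic ions, *Slc22a3* (OCT3, which clears catecholamines outside neurons) was at 2.57 ± 0.366 FPKM with vehicle and 2.74 ± 0.163 FPKM with FGF1ΔHBS (SD, n = 3 each), and the 95% interval of its log2 fold change was -0.19 to 0.32. *Slco2a1*, the prostaglandin transporter, lay between 0.407 and 0.730 FPKM. In other groups, *Slc16a11*, counted with the carriers of lactate, ketones and other carboxylates, lay between 0.201 and 0.951 FPKM. *Slc1a3*, a glutamate transporter counted with the amino acid carriers, lay between 0.406 and 0.749 FPKM.

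Of a list of 51 carriers with known roles in heart muscle, 11 were in the table and 8 of these were tested. Of the 8, 3 were higher at an unadjusted p-value under 0.05 by limma (*Slc4a3*, *Slc20a2* and *Slc26a6*), 1 was lower (*Slc38a2*) and 4 were not called (*Slc27a1*, *Slc39a7*, *Slc22a3* and *Slc22a4*), where 7.1% of all genes tested were called higher and 10% lower. The list was written with earlier results of these data known, so its count is a description.

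Carriers typical of kidney needed a separate look, because FGF1ΔHBS replicate 3 held high values of several. Of a list of 50 such carriers, 7 were in the table, none reached a mean of 1 FPKM, and none was tested. FGF1ΔHBS replicate 3 had the highest value of 5 of the 7. *Slc12a1*, the sodium-potassium-chloride cotransporter NKCC2 of the loop of Henle, was at 0.062, 0.124 and 0 FPKM with vehicle and at 0.00928, 0.138 and 0.844 FPKM with FGF1ΔHBS. The value of FGF1ΔHBS replicate 3 was 6.10 times the next highest, and the other treated hearts lay within or next to the vehicle range. *Slc13a3*, a dicarboxylate carrier of the proximal tubule, was at 0.905 FPKM there and between 0.114 and 0.508 FPKM in the other hearts. *Slc23a1*, which takes up vitamin C in kidney and intestine, was at 0.345 FPKM there and at most 0.183 FPKM elsewhere.

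*Slc7a13*, an amino acid carrier of the proximal tubule, was at 0.246 FPKM in FGF1ΔHBS replicate 3, at 0.141 FPKM in vehicle replicate 2 and listed at 0 in FGF1ΔHBS replicate 1. *Slc17a3*, an organic anion and urate transporter, was at 0.192 FPKM in FGF1ΔHBS replicate 3 and at 0.141 FPKM in vehicle replicate 1. The exceptions were *Slc47a2*, a proton-coupled exporter of organic cations that was highest in FGF1ΔHBS replicate 2 at 0.162 FPKM, and *Slc34a3*, a phosphate cotransporter of the proximal tubule that was above 0 only in vehicle replicate 2, at 0.0222 FPKM. Summed, the 7 genes were at 0.82, 0.803 and 0.458 FPKM in the vehicle mice and at 0.264, 1.12 and 2.65 FPKM in the treated mice. The lowest and the highest sums were both in the FGF1ΔHBS group. The treated mean was 1.35 FPKM, and 0.692 FPKM without replicate 3, against 0.694 FPKM with vehicle.

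Other genes enriched in kidney ran in the same libraries. Of 27 on the list, 4 were in the table, and their sum was 1.75, 1.71 and 0.20 FPKM with vehicle and 0.254, 2.30 and 3.68 FPKM with FGF1ΔHBS. *Pdzk1*, a scaffold protein of the brush border, was at 0.393, 0.512 and 0 FPKM with vehicle and at 0.019, 0.417 and 1.32 FPKM with FGF1ΔHBS. *Klk1*, a kallikrein of kidney and gland ducts, was at 1.35, 1.19 and 0.187 FPKM with vehicle and 0.235, 1.80 and 2.19 FPKM with FGF1ΔHBS. *Kcnj1* stayed under 0.15 FPKM and *Pax2* was at 0 in all hearts but FGF1ΔHBS replicate 3, at 0.0156 FPKM. Both *Pdzk1* and *Klk1* were lowest in vehicle replicate 3 and FGF1ΔHBS replicate 1 and highest in FGF1ΔHBS replicate 3. The part of these libraries' kidney-enriched transcripts in the levels of the kidney-type carriers was not tested.

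**Figure D4:**
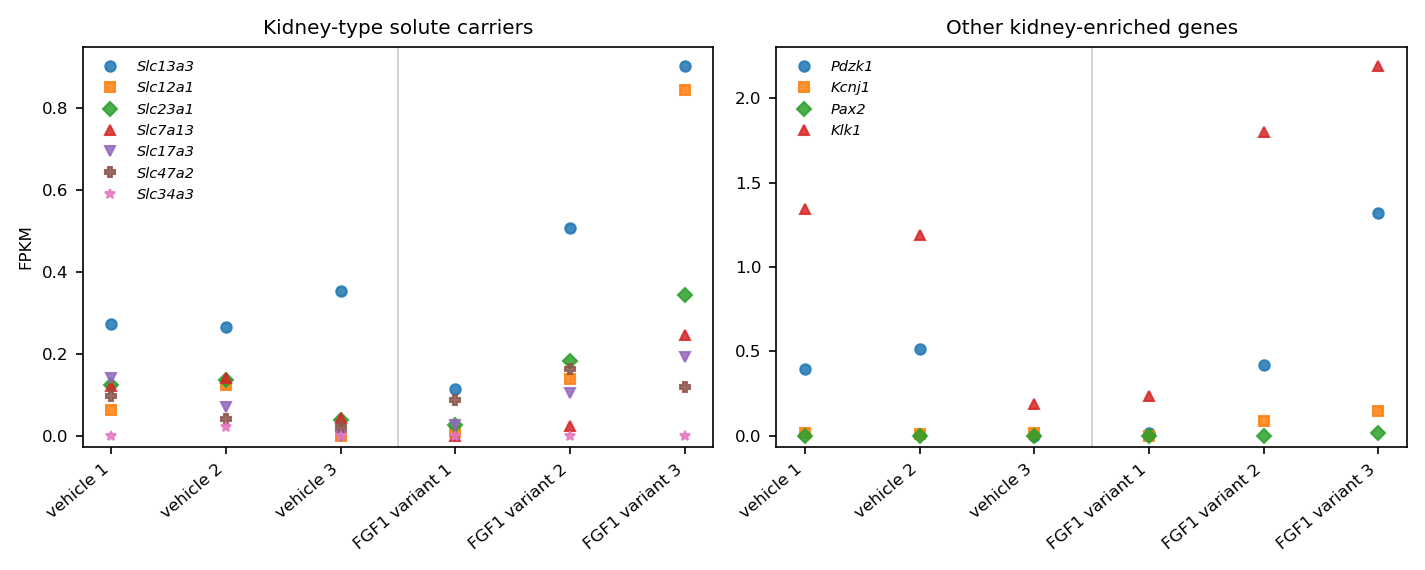
FPKM by mouse of the 7 kidney-type solute carriers (left) and of 4 other kidney-enriched genes (right), with the vehicle libraries to the left of the grey line and the FGF1ΔHBS (FGF1 variant) libraries to its right. *Slc12a1* reaches 0.844 FPKM and *Pdzk1* 1.32 FPKM in FGF1ΔHBS replicate 3, and the sum of each panel is lowest in vehicle replicate 3 and FGF1ΔHBS replicate 1.

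The kidney-type carriers were part of the reason for a look at this library, which was taken after its values were seen. FGF1ΔHBS replicate 3 held the highest value of 18 of the 63 carriers, or 28.6%, against 15.6% of all genes. Of the 38 genes with a mean under 1 FPKM, 14 had their highest value in FGF1ΔHBS replicate 3, or 36.8%, against 18.9% of all genes at that level. Both counts include the 5 kidney-type carriers named above. Without the kidney-type carriers FGF1ΔHBS replicate 3 held the highest value of 13 of 56 carriers, or 23.2%, and of 9 of 31 with a mean under 1 FPKM, or 29%. Among the 9 were *Slc38a11*, a sodium-coupled amino acid carrier, at 0.966 FPKM against 0.369 to 0.758 FPKM in the other hearts, and *Slc22a21* at 0.581 FPKM against 0.274 to 0.428 FPKM. Others of the 9 were near 0 even in this library. *Slc6a20a* was at 0.0735 FPKM there, *Slc17a4* at 0.0765 FPKM and *Slc5a9* at 0.0207 FPKM, and *Slc35g3* was above 0 only there, at 0.136 FPKM. The kidney-type list may leave out carriers that kidney expresses, and carriers outside it did not all peak in this library. *Slc26a1* was lowest in FGF1ΔHBS replicate 3, at 0.0923 FPKM against 0.106 to 0.381 FPKM in the other hearts. *Slc5a1* was highest in vehicle replicate 3 and *Slc6a13* in FGF1ΔHBS replicate 2. Without FGF1ΔHBS replicate 3 the 5 called carriers were the same 5 genes at an unadjusted p-value under 0.05 by limma. Their log2 fold changes ran from -0.50 for *Slc38a2* to 0.48 for *Slc26a6*.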

How the data were processed

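The table deposited by the authors holds FPKM of each gene in hearts of 3 vehicle and 3 FGF1 variant (FGF1ΔHBS) mice. Trimmomatic was used on the reads, and the submitters' processing notes name HISAT2 2.0, StringTie 1.3.0 and Bowtie 0.12.2 with no role given. The notes name mm8, but 4106 of 4132 loci lie on the same chromosome as in GENCODE M21 (GRCm38) and 2098 are identical to it after adding 1 to the start, so gene locations were taken from GENCODE M21. The methods describe single-end reads and the labels paired-end libraries made, in their words, from an adipose type. Strand and the handling of shared reads are not given in the sources used here.

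Values were transformed to log2(FPKM + 1), 2041 genes that averaged 1 FPKM or more were kept, and limma 3.58.1 (R 4.3.3, eBayes with trend) was fitted to them without pairing, with Benjamini-Hochberg adjustment. The fit was tested on simulated data. The p-values measure the spread between 3 mice a group. Members, lists and alternatives were chosen with earlier results of these data known. Named are the 12 most abundant genes, those with an unadjusted p-value under 0.05, carriers of heart and kidney lists and the 6 most variable genes, while other genes named from substrate groups were chosen after their values were seen. The values of 1 carrier that enters the counts are not reported here. Alternatives were another pseudocount, filters, scalings, forms of eBayes, a GC correction, the replicate number as a block and leaving out each mouse.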

Additional observations from a re-analysis of the deposited data

How the results depend on the processing

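None of the 25 carriers passed an adjusted p-value of 0.05 by limma, with 5 at an unadjusted p-value under 0.05, and 0 passed at 0.10. Leaving out each mouse in turn gave 0 to 2 past the adjusted threshold, the 2 being *Slc38a2* and *Slc20a2* without vehicle replicate 3, where 84 of all genes passed against 2 with all mice. At an unadjusted p-value under 0.05 the alternatives gave 5 to 7 carriers, except for 3 with a minimum of 5 FPKM, which leaves 10 carriers in the test. *Slc38a2*, *Slc20a2*, *Slc26a6* and *Slco5a1* stayed under 0.05 in each alternative in which they were tested, and their direction and that of *Slc4a3* did not change. Their adjusted p-values over the alternatives were 0.032 to 0.295 for *Slc38a2*, 0.0434 to 0.354 for *Slc20a2*, 0.0647 to 0.347 for *Slc26a6*, 0.138 to 0.376 for *Slco5a1* and 0.0834 to 0.498 for *Slc4a3*. The median log2 fold change of the carriers, 0.052, was -0.015 over 10 carriers with a minimum of 5 FPKM, and 0.085 with a correction for GC content. With each mouse left out it ran from -0.010 to 0.053, over 25 or 26 carriers, because the filter was applied again. Its sign was not stable, but the genes behind it were not all the same. The Spearman correlation of log2 fold change with GC content was -0.22 over 2039 genes and 0.21 over the 25 carriers. The median GC content was 49.9% and 52.6%.

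The replicate block left 5 carriers at an unadjusted p-value under 0.05 and 0 past the adjusted one. Same-numbered mice correlated at -0.0078, -0.16 and -0.22 in their deviations, so replicate numbers were not taken as pairs. Of the other genes, *Slc27a1* turned to 0.00056 with median ratio scaling and 0.039 with GC correction, *Slc35b2* to 0.025, 0.039 and 0.091 with median ratio scaling, quantile normalization and GC correction, *Slc5a6* to 0.023 and 0.024 with quantile normalization and GC correction, and *Slc35e2* to 0.0041 and 0.027 with median ratio scaling and quantile normalization. With mice left out the ranges that crossed 0 included -0.16 to 0.071 for *Slc27a1*, -0.067 to 0.25 for *Slc35e1*, -0.063 to 0.069 for *Slc35b2*, -0.10 to 0.031 for *Slc5a6*, -0.048 to 0.15 for *Slc7a6*, -0.035 to 0.011 for *Slc35e2*, -0.017 to 0.13 for *Slc22a3*, -0.45 to 0.14 for *Slc38a4* and -0.070 to 0.21 for *Slc46a1*. The causes were not tested. The summed kidney-type carriers were 0.652 FPKM higher with FGF1ΔHBS, and -0.0016 to 1.19 FPKM with each mouse left out, the lowest without FGF1ΔHBS replicate 3. The filter at 1 FPKM leaves no kidney-type carrier, so that alternative gave no value. Read depth was only inferred, in relative terms, and a value of 0 was given no upper limit.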
